A study of Mus musculus with 6 samples.

Results

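Matrilins and cartilage oligomeric matrix protein (COMP) were followed here at the transcript level in mouse articular cartilage. The members were the rows named Matn1, Matn2, Matn3, Matn4 and Comp, 5 of the 33971 genes of the table, and all 5 passed the filter on low counts that left 20397 genes for testing. RNA was sequenced from articular cartilage of wild-type (WT) mice, with 3 libraries of 2-month-old and 3 of 18-month-old animals, to ask how expression changed with age. The labels give no treatment or further allele in either group, and the study's methods describe male mice. They do not say whether a library holds 1 animal or several, so p-values measure the spread between these samples, which may be technical. Read counts per gene were used for testing, and FPKM (fragments scaled by transcript length and by the mapped fragments of the library) for comparing levels between genes.

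Matrilins are secreted proteins built from von Willebrand factor A (VWA) domains, epidermal growth factor repeats and a C-terminal coiled coil through which the subunits join into oligomers. Matrilin-1 and matrilin-3 are found mainly in cartilage and can assemble together, whereas matrilin-2 and matrilin-4 occur in many connective tissues. COMP, also called thrombospondin-5, is a pentamer that binds collagens and matrilins and helps to order collagen fibrils. Mutations of human MATN3 and COMP cause multiple epiphyseal dysplasia, and fragments of COMP are measured as a marker of joint disease.

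The libraries held 48171507 to 59085179 counts, and each 18-month library had more counts than any 2-month library. A list of 14 chondrocyte markers without the members took 5.43% to 6.98% of all counts at 2 months and 0.115% to 0.378% at 18 months, with no marker at 0 in any library. A list of 10 neutrophil markers, led by S100a9, took 0.000645% to 0.348% and 3.91% to 4.22%, and 8 erythroid markers, led by Hbb-bs, took 0.0247% to 0.659% and 2.69% to 3.56%. The highest 2-month values of both lists came from replicate 2. Xist, the RNA that coats the inactive X chromosome of female cells, ranged from 88239 to 102417 counts at 2 months and from 11 to 30 at 18 months, although the methods describe male mice. Age, this difference and the content of marrow cell transcripts cannot be told apart in this design. Replicates 2 and 3 of the 18-month group were the closest pair, with a median squared count difference 6.32 times that of counting noise, against 13.1 to 48.7 for the other pairs of an age.

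All 5 members were lower in the 18-month libraries, and for each of them every 18-month library lay below every 2-month library. The change was very unequal. The cartilage matrilins Matn1 and Matn3 fell to a few counts or none, Comp had a log2 fold change of −5.74, and Matn4 and Matn2 were at −3.33 and −2.87. A gene was called lower at an adjusted p below 0.05 and a log2 fold change below -1 by the quasi-likelihood test of edgeR (p adjusted by Benjamini-Hochberg), which held for 5 of 5 members and for 21.3% of all genes tested. Complete separation downwards was found for 5 of 5 members and for 34.6% of all genes tested. The calls of Matn1, Matn2, Matn3 and Comp held in 17 of 17 alternative analyses and that of Matn4 in 12. In bulk tissue, fewer chondrocytes in a sample and less RNA per chondrocyte cannot be told apart.

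**Figure D1:**
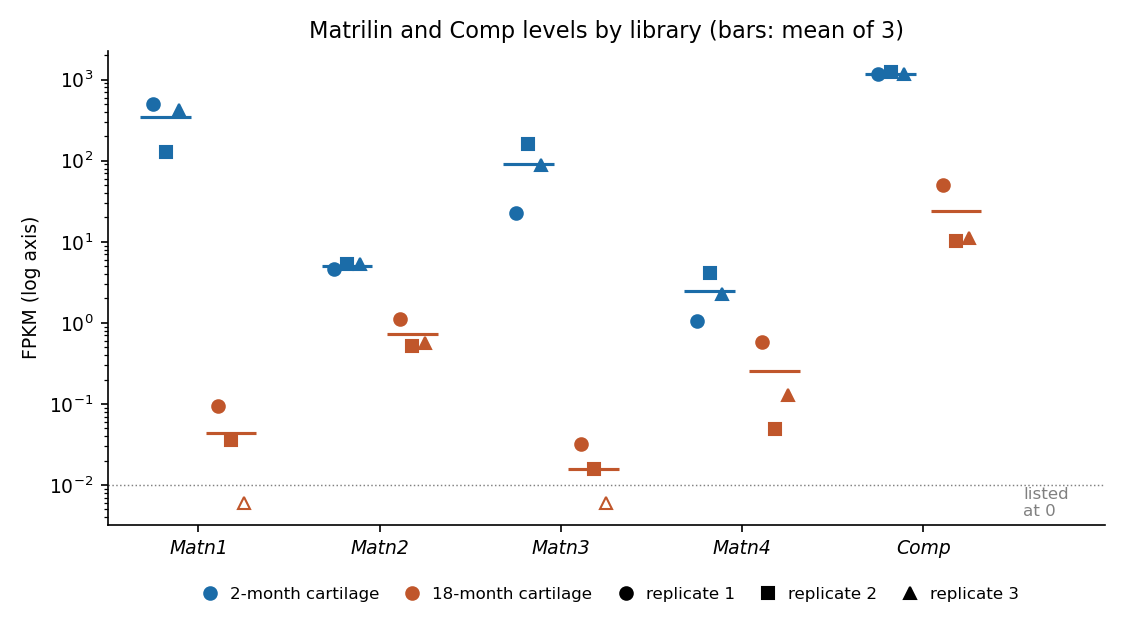
FPKM of each member on a log axis, with 1 point per library (blue, 2-month; orange, 18-month; the marker shape gives the replicate) and a bar at the mean of 3 libraries. Open symbols under the dotted line are libraries in which the gene was listed at 0. All 18-month points lie below the 2-month points of the same gene, and the gap is widest for Matn1 and Matn3.

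Matn1 (ENSMUSG00000040533) encodes matrilin-1, also known as cartilage matrix protein, and lies on the plus strand of chromosome 4 from 130944385 to 130955475 (GRCm38), with 8 exons. Its counts were 54920, 15012 and 47321 in 2-month replicates 1, 2 and 3, and 13, 5 and 0 in 18-month replicates 1, 2 and 3. The 2-month libraries thus placed Matn1 at ranks 56, 214 and 61 by FPKM, at 499.6, 128 and 421, while it was barely detected in any 18-month library. For the library with 0 counts, a floor of 3 counts allows up to 0.0539 CPM (counts scaled to the total of the library). Summed over libraries and scaled by total counts, the 2-month level was 7472-fold the 18-month level (95% interval from counting alone, 4728 to 12608, on 117253 and 18 counts). The interval does not hold the spread between libraries. In the fit over all genes, the log2 fold change was −12.98 (SE 1.40, adjusted p = 0.00176), at rank 5 from the lowest of 20397. Without 18-month replicate 1 it was −14.12. At the lowest 2-month and the highest 18-month library, the FPKM values still stood 1342-fold apart.

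Matn3 (ENSMUSG00000020583), which encodes matrilin-3, lies on the plus strand of chromosome 12 from 8947929 to 8972028 with 8 exons. In 2-month replicates 1, 2 and 3 it had 3790, 28594 and 15062 counts, and in the 18-month replicates 7, 4 and 0. The 18-month values were as close to 0 as those of Matn1, but the 2-month libraries ran in the opposite order, since replicate 2 had the lowest Matn1 and the highest Matn3. In FPKM, Matn3 was at 22.9, 162 and 89.0 in 2-month replicates 1 to 3. Summed counts gave a 4948-fold difference (95% counting interval 2765 to 9912, on 47446 and 11 counts). The fitted log2 fold change was −12.25 (SE 1.31, adjusted p = 0.00175), at rank 9 from the lowest. It was −13.01 without 18-month replicate 1 and −11.60 without 2-month replicate 2. Few counts of either gene remained at 18 months, so the fitted values of both depend on how low counts are handled, and limma on log2(FPKM + 1) gave −8.17 for Matn1 and −6.12 for Matn3.

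The bases before the start sites of these 2 genes are shown because both changed by far more than the other members. The windows are the 250 bases upstream of the RefSeq start, from chr4:130944135-130944384 for Matn1 and chr12:8947679-8947928 for Matn3, both GRCm38.p6 and plus strand, written 5′ to 3′ with GC boxes in capitals.
Matn1: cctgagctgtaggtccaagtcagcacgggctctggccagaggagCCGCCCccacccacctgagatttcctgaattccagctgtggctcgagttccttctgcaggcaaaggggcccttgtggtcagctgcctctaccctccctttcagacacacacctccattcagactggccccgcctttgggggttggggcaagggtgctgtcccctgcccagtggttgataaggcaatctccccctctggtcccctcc
Matn3: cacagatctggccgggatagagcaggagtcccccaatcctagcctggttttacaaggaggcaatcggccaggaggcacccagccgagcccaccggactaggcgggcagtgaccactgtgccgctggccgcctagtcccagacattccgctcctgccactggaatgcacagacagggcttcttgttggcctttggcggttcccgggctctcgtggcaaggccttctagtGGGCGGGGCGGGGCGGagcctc
The GC box (GGGCGG, or CCGCCC on the other strand) is a letter pattern bound by Sp family factors. Matn1 held 1 match, whose first base lay 206 bases before the start, and Matn3 held 3 overlapping matches beginning 22, 17 and 12 bases before the start. Of 32851 mouse promoter windows, 32.7% held a GC box in the same stretch. The core letters of SOX sites (AACAAT) were on neither strand of either window, and 9.42% of all windows held them. The letters of the core promoter element TATAAA were also on neither strand, and 12.4% of all windows held them. GC content was 62.0% for Matn1 and 65.2% for Matn3, against a median of 52.4% over all windows. Matn4 had 2 RefSeq windows. The one at the annotated start (54.4% GC) held none of the 3 patterns, and the one at a second start inside the gene (62.8% GC) held 1 GC box, 6 bases before that start. These are matches of letters only.

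Comp (ENSMUSG00000031849) lies on the plus strand of chromosome 8 from 70373558 to 70382066, with 19 exons in its longest coding transcript. At 2 months it had 189100, 213841 and 196097 counts, and at 18 months 9970, 1913 and 2079. Comp was thus almost level across the 2-month libraries, while 18-month replicate 1 stood above replicates 2 and 3. In FPKM, the 2-month libraries held 1160, 1232 and 1177 (mean 1190 ± 37.4, SD, n = 3), which put Comp at ranks 26, 31 and 26 of all genes. The 18-month libraries held 49.99, 10.2 and 11.0 FPKM (mean 23.7 ± 22.7, SD, n = 3), at ranks 861, 4387 and 4149. Comp therefore remained well detected at 18 months, and summed counts gave a 49.2-fold difference (95% counting interval 48.4 to 50.1). The fitted log2 fold change was −5.74 (SE 0.80, adjusted p = 0.00315), at rank 304 from the lowest, and was −6.86 without 18-month replicate 1. Even the 2 libraries nearest to each other across the ages differed 23.2-fold in FPKM.

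Matn2 (ENSMUSG00000022324) and Matn4 (ENSMUSG00000016995), the matrilins of wider distribution, were the members with the lowest 2-month levels. Matn2 lies on the plus strand of chromosome 15 from 34306677 to 34436273, with 19 exons. Counts of 1583, 1972 and 1867 at 2 months stood against 474, 205 and 226 at 18 months. The groups did not overlap, and 18-month replicate 1 was again the highest of its age. Matn2 FPKM was 5.09 ± 0.430 at 2 months and 0.734 ± 0.338 at 18 months (SD, n = 3 each). The log2 fold change was −2.87 (SE 0.33, adjusted p = 0.00192), and summed counts differed 6.87-fold (95% counting interval 6.40 to 7.38). A gene on the opposite strand, 9430069I07Rik, overlaps Matn2 and held 0 to 15 counts per library.

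Matn4 lies on the minus strand of chromosome 2 from 164389393 to 164405160, with 11 exons in its longest coding transcript. The 2-month replicates had 297, 1232 and 658 counts and the 18-month replicates 203, 17 and 44. The groups were apart by little, because the highest 18-month library, replicate 1, came near the lowest 2-month library, also numbered 1. Matn4 FPKM was 1.04, 4.07 and 2.26 at 2 months and 0.580, 0.0485 and 0.128 at 18 months, so the nearest libraries across the ages differed 1.80-fold. The log2 fold change was −3.33 (SE 0.99, adjusted p = 0.0348). The call was lost without 2-month replicate 3 (adjusted p = 0.0783 in edgeR), without 18-month replicate 2 (0.0665) and without 18-month replicate 3 (0.11). It was also lost with a replicate block (0.0898). The same held with 18-month replicates 2 and 3 summed as 1 sample (0.0801), an alternative chosen after seeing the data. The log2 fold change was −4.75 without 18-month replicate 1. Matn4 overlaps Rbpjl on the opposite strand, which held 0 to 39 counts per library. The libraries were strand-specific, but the strand setting of the counting is not given in the sources used here.

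At 2 months the order of the mean FPKM was Comp, Matn1, Matn3, Matn2 and Matn4. Comp lay above Matn1 in every 2-month library, but the ranges of Matn1 and Matn3 overlapped. Matn2, at 4.60 to 5.37, lay above Matn4, at 1.04 to 4.07. At 18 months the order was Comp, Matn2, Matn4, Matn1 and Matn3. Comp again lay above every other member in all 3 libraries, the ranges of Matn2 and Matn4 overlapped, and Matn1 and Matn3 were at 0 to 0.0956 and 0 to 0.0319. The ratio of Comp to the summed matrilin FPKM was 2.20, 4.11 and 2.27 at 2 months, below all 18-month values of 27.3, 16.7 and 15.9.

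The members differed in how steady they were among the 2-month libraries. Comp and Matn2 varied little, with coefficients of variation of 3.15% and 8.44% in FPKM. Matn1, Matn4 and Matn3 varied by 56.0%, 61.9% and 76.3%, and the highest library of Matn3 was 7.09-fold its lowest. The ratio of Matn3 to Matn1 FPKM was 0.0458, 1.26 and 0.211 in 2-month replicates 1, 2 and 3, so that replicate 2 alone had more Matn3 than Matn1. The same library had the highest neutrophil marker share of its age, at 0.348% against 0.000645% and 0.00539%, and the highest osteoblast and osteocyte share, at 0.574% against 0.380% and 0.410%. Its chondrocyte marker share was also the highest, at 6.98% against 5.43% and 6.44%. Col1a1, the bone and tendon collagen chosen here after its values were seen, had 545386 counts in replicate 2 against 10559 and 22118. The part of these differences in the Matn1 and Matn3 values was not tested.

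The make-up of matrilin transcripts changed along with their amount. The FPKM of Matn1 to Matn4 summed to 528, 299.8 and 518 at 2 months and to 1.83, 0.615 and 0.691 at 18 months. Matn1 made up 94.6%, 42.8% and 81.3% of the sum at 2 months and 5.22%, 5.81% and 0% at 18 months. Matn3 went from 4.33%, 54.1% and 17.2% to 1.74%, 2.60% and 0%. Together these cartilage matrilins made up nearly all of the 2-month sum and very little of the 18-month sum. Matn2 moved the other way, from 0.870%, 1.79% and 1.02% to 61.3%, 83.7% and 81.5%. Matn4 shares were 0.197%, 1.36% and 0.437% at 2 months and 31.7%, 7.88% and 18.5% at 18 months. None of the 4 shares overlapped between the ages. The exact two-sided permutation test gave p = 0.1 for each share, the smallest that 3 against 3 allows. A larger Matn2 share at 18 months was not a rise of Matn2, whose own FPKM was lower.

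**Figure D2:**
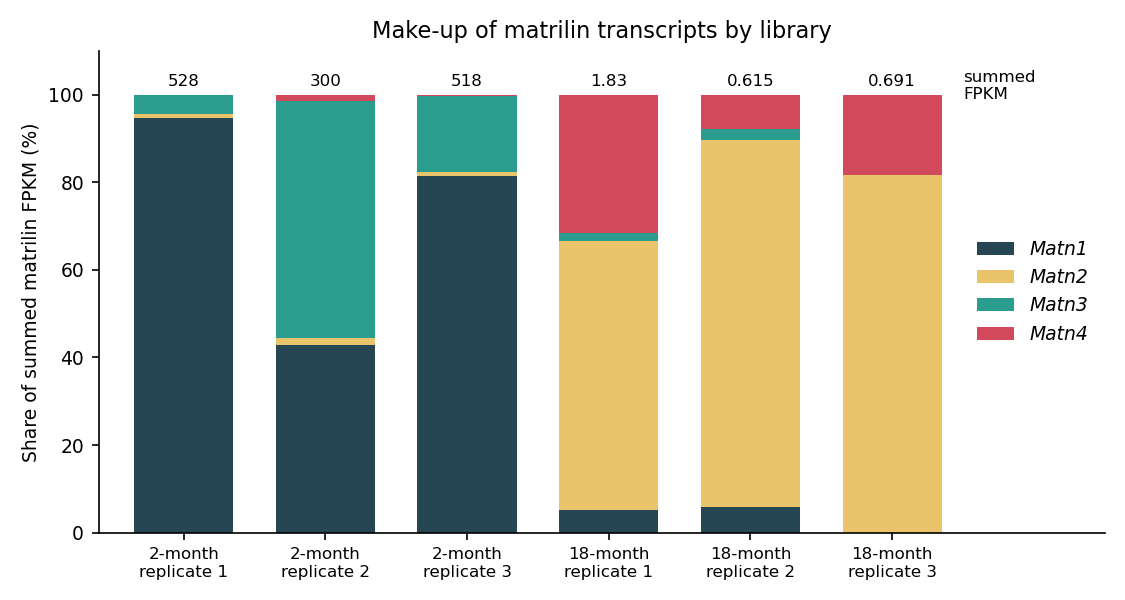
Share of the summed FPKM of Matn1 to Matn4 taken by each gene, as stacked bars from 0 to 100% for each library, with the summed FPKM printed above. Matn1 and Matn3 fill the 2-month bars, replicate 2 holding the most Matn3, and Matn2 fills most of each 18-month bar while the sum drops from at least 299.8 FPKM to 1.83 or less.

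Each member was then set against the other cartilage genes of its own library, as the log2 ratio of its counts to the summed counts of the 14 chondrocyte markers. Of these markers, 14 of 14 were called lower at 18 months, with a median log2 fold change of −6.11, against −0.02 over all genes tested. Per 1000 reference counts there were 20.9, 4.16 and 15.3 Matn1 counts at 2 months and 0.0582, 0.0788 and 0 at 18 months. Matn1 thus fell beyond the summed reference, by a log2 ratio of −8.32, and Matn3 likewise by −7.17. The markers in the sum differed among themselves, with log2 fold changes from −10.16 (Col9a1) to −3.33 (Cytl1). Per 1000 reference counts, Matn2 stood at 0.603, 0.546 and 0.602 at 2 months and at 2.12, 3.23 and 3.53 at 18 months. All 18-month libraries were higher here, with a log2 difference of +2.31. The Matn4 ratio differed by +1.47 with overlapping groups (exact permutation p = 0.2). For Matn1, Matn2, Matn3 and Comp the groups did not overlap, and the exact permutation p was 0.1, the smallest possible. With 3 libraries an age, no ratio could reach 0.05.

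By counts, Comp kept closest to the summed reference, at 72.0, 59.2 and 63.2 counts per 1000 at 2 months and 44.7, 30.1 and 32.5 at 18 months, a log2 difference of −0.88. Its direction depended on the reference. The value was −0.10 without Cytl1, a small secreted cartilage protein that took 46.9% to 59.4% of the reference counts at 18 months, +0.45 against the mean log2 count of the list, and +1.02 against Col2a1 alone, the main cartilage collagen. With FPKM in place of counts Comp was at −1.64, farther from 0 than Matn2 at +1.56 and Matn4 at +0.75. The directions of the other 4 members held against each of these references, with values of −8.59 to −6.42 for Matn1, −7.19 to −5.27 for Matn3, +1.56 to +4.21 for Matn2 and +0.75 to +3.37 for Matn4. The lowest Matn4 value was below the pooled SD of its libraries, 0.85.

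**Figure D3:**
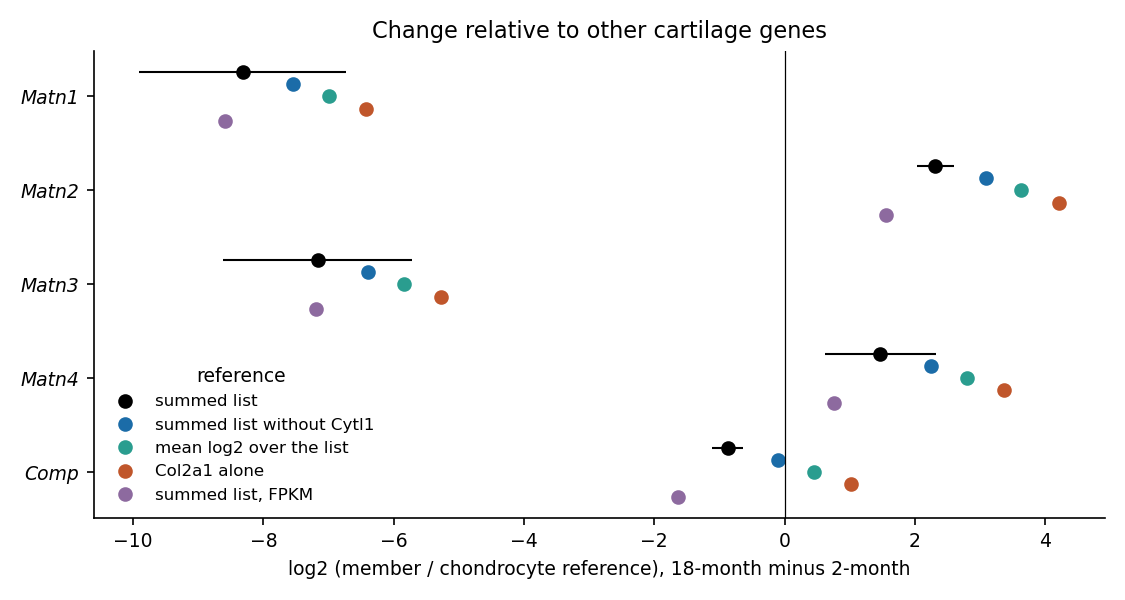
Change of each member relative to chondrocyte marker genes, as the 18-month minus the 2-month mean of the log2 ratio, with a point for each choice of reference and a line of 1 pooled SD of the libraries on either side of the summed list. Matn1 and Matn3 lie left of 0 and Matn2 and Matn4 right of 0 under all 5 references, while the points of Comp fall on both sides.

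The genes nearest in pattern differed between the members. Likeness was measured as the root mean square difference of log2 CPM over the 6 libraries, each gene centred on its own mean, among the 13899 tested genes whose mean FPKM was 1 or more. Nearest to Comp were Hapln1, the link protein of aggrecan, at 0.13, then Wscd2 at 0.19 and Efcab1 at 0.21. Hapln1 had 127128, 131665 and 152266 counts at 2 months and 5889, 1148 and 1305 at 18 months. Matn2 was matched most closely of all members, by Bcl9l at 0.067, the secreted protease gene Htra3 at 0.10 and Map1a at 0.12. Matn3 was nearest to Gm21983 at 0.83, Epyc, which encodes the proteoglycan epiphycan, at 0.86 and Col9a1 at 1.06. For Matn1 the nearest were Xist at 1.37, Cnmd, which encodes chondromodulin, at 1.40 and Matn3 at 1.53, and for Matn4 they were Clec3b at 0.48, Gm7162 at 0.52 and Gm12795 at 0.52. Among the members themselves the closest pair was Matn2 and Matn4, at 0.90. These distances rest mostly on the step between the ages, which all 6 libraries share with the marker lists.

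COMP is 1 of 5 thrombospondins, and the other 4 were lower too, with 4 of 4 called lower and a median log2 fold change of −3.09. The largest falls were those of Thbs3, at −5.67 (SE 0.69), and Thbs4, at −4.01 (SE 0.97), both pentameric like COMP, with adjusted p of 0.00221 and 0.018 in edgeR. Thbs3 had 3912, 16096 and 8240 counts at 2 months and 377, 135 and 148 at 18 months. Of these 4, 3 were called without 18-month replicate 2 or 3 or 2-month replicate 3. Of 16 other matrix proteins with VWA domains, 14 were tested, and 8 were called lower and 6 were not called (median −2.06). Col6a3 and Col6a1, chains of the microfibrillar collagen VI, fell the most, by −4.70 and −4.26. The count of 8 was 5 without 2-month replicate 3 or 18-month replicate 2 or 3, and Col14a1 (adjusted p = 0.0488) and Vwa1 (0.0429) lay near the threshold. Without 2-month replicate 2, 8 were called lower and 2 higher. Genes called higher made up 14.9% of all genes tested, and 33.9% had every 18-month library above every 2-month library.

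Among 15 matrix partners that matrilins or COMP bind, 12 were called lower and 3 were not, with a median of −4.38. Col2a1, Acan, Hapln1, Col9a1, Col9a2, Col9a3 and Chad are also in the chondrocyte marker list, so their calls repeat calls given above. Without 2-month replicate 2, 12 were called lower and 2 higher. Col9a1 and Col9a2, chains of the collagen IX that carries matrilins and COMP on the cartilage fibril, fell the most, by −10.16 (SE 1.27, adjusted p = 0.00244) and −7.32 (SE 1.17, adjusted p = 0.00465). Col9a1 had 14421, 133828 and 49390 counts at 2 months and 133, 25 and 46 at 18 months, and like Matn3 it was highest in 2-month replicate 2. Col1a1, Col1a2 and Nid1 were not called, with log2 fold changes of −0.82, −0.36 and −0.39 and overlapping groups.

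Of 7 transcription factors known at matrilin and Comp promoters, 6 were called lower, with a median of −1.80. Sox6, named after its values were seen, lay at the fold limit with −1.0012. The count was 5 with DESeq2, with limma, and in edgeR without 2-month replicate 1 or 3 or 18-month replicate 1. Sox9, the regulator of cartilage matrix genes, and its partner Sox5 fell the most, by −5.16 (SE 0.85, adjusted p = 0.00511) and −4.05 (SE 0.78, adjusted p = 0.00821). Sox9 counts were 11935, 9829 and 12327 at 2 months and 905, 153 and 149 at 18 months. Sox9 is also in the chondrocyte marker list, so its call repeats one given above. Nfic was lower by 0.69 on the log2 scale, inside the fold limit, though its adjusted p was 0.00328. Sox9 thus changed by less than Matn1 and Matn3 on the log2 scale, as the values side by side show, and the difference between genes was not tested.

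Of 8 proteinases known to cleave COMP or matrilins, 7 were tested. Mmp13, the main collagenase of cartilage, was called lower at −1.50 (SE 0.34, adjusted p = 0.0135), and 6 were not called, with a median of −0.42 over the list. Mmp9, which neutrophils and osteoclasts also make, had 212, 97772 and 10132 counts at 2 months and 62219, 59034 and 60264 at 18 months, so the groups overlapped through 2-month replicate 2. Without that library the median of the 7 was +1.33, with 1 called lower and 1 higher. Mmp19 was not called by edgeR (log2 fold change +1.33, adjusted p = 0.149). It had 63, 324 and 506 counts at 2 months and 1010, 865 and 816 at 18 months. Every 18-month library thus lay above every 2-month library, as for 33.9% of all genes tested. With all 6 libraries, DESeq2 called 1 of the 7 lower and 1 higher. Mmp9 and Mmp19 were named after their values were seen. Among 11 chaperones and trafficking proteins of the endoplasmic reticulum that handle COMP and matrilin-3, 6 were called lower and 5 were not (median −1.08). Serpinh1, the collagen chaperone HSP47, and P4hb, a subunit of prolyl 4-hydroxylase, fell the most, by −2.96 and −2.09. The 6 calls were 2 without 2-month replicate 3 or 18-month replicate 2 or 3, and 3 without 2-month replicate 1.

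**Figure D4:**
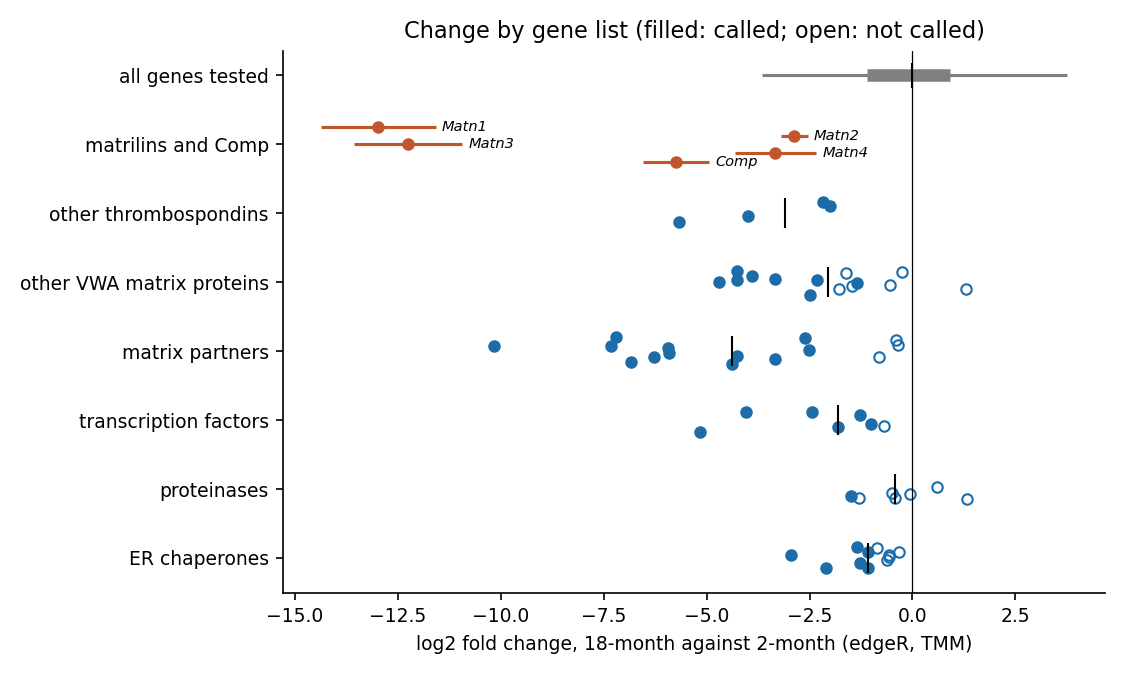
Log2 fold changes (18-month against 2-month) of the members, with bars of 1 SE, and of the genes of 6 lists, filled where called and open where not, with a tick at each list's median. The top row gives the 5th to 95th percentile (line), the middle 50% (thick bar) and the median of all genes tested. Matn1 and Matn3 lie beyond every listed gene, while Matn2 and Matn4 fall among the thrombospondins and other VWA proteins.

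The marker lists of other cell types moved with age as well. Of 10 neutrophil markers, 0 were called by edgeR and 1 had an unadjusted p below 0.05, while DESeq2 called 9 higher and limma 10. All 10 were higher in every 18-month than in every 2-month library, with a median of +5.00, and without 2-month replicate 2 edgeR called 10 higher. Of 8 erythroid markers, 3 were called higher, against 8 without that replicate and 0 without any other single library in edgeR. Tendon and ligament cells also make COMP, and the list of their markers took 0.121% to 0.162% of counts at 2 months and 0.00383% to 0.0103% at 18 months, with 3 of 5 tested markers called lower. At 2 months Fmod, which cartilage also expresses, made up most of this share, with 51846, 77753 and 65839 counts. At 18 months Fmod had 2005, 712 and 803 counts, below Egr1 with 3865, 1380 and 1199. The rest of this list was named after its values were seen. Scx and Mkx were called lower, at −1.71 (adjusted p = 0.0114) and −3.77 (adjusted p = 0.00165) in edgeR. Egr1, at −1.25, was not called, and Kera was below the filter. Tnmd, a tendon gene that was not called, had 7, 43 and 0 counts and 50, 35 and 11, so its groups overlapped. Of 8 osteoblast and osteocyte markers, led by Ibsp, 2 were called lower, and their share was 0.380% to 0.574% and 0.123% to 0.138%. At 2 months Ibsp made up most of that share, with 154547, 196182 and 172300 counts. At 18 months Ibsp had 25342, 25258 and 25374 counts, fewer than the other markers of the list together. The rest of this list was named after its values were seen. Sp7 was also called lower, at −2.25 (adjusted p = 0.00388 in edgeR). The others were not called and had overlapping groups. Bglap, Bglap2 and Mepe had log2 fold changes of −0.01, +0.15 and +0.72, and Phex, Sost and Dmp1 of −0.97, −0.71 and −0.36. Without 2-month replicate 2 the list had 2 lower and 4 higher, and its median turned from −0.53 to +0.87. Of 7 fibroblast markers, led by Cxcl12, 3 were called lower and 1 higher, or 2 and 3 without 2-month replicate 2, and their share was 0.0390% to 0.105% and 0.158% to 0.162%. Cxcl12 made up most of the 18-month share, with 610, 18521 and 651 counts at 2 months and 75969, 75190 and 76494 at 18 months. It was not called (adjusted p = 0.0888 in edgeR). The called genes, named after their values were seen, were Pdgfra, Clec3b and Lum, at −1.10, −3.99 and −2.17, and Pi16, at +4.52. Of 7 tested skeletal muscle markers, 5 were called lower. Mylpf, the most abundant of them, was not called (log2 fold change −0.59, adjusted p = 0.27 in edgeR). The list of 8 B lymphocyte markers, led by Ighm, had 0 called by edgeR and 1 at an unadjusted p below 0.05, with 1 called higher by DESeq2 and 2 by limma, and 7 by edgeR without 2-month replicate 2. The list of 5 endothelial markers, led by Pecam1, had 0 called by edgeR, DESeq2 or limma and 0 at an unadjusted p below 0.05, and without 2-month replicate 2 edgeR called 4 higher. Of 2 tested adipocyte markers, led by Fabp4, 1 was called higher, and both without that replicate. With 2-month replicate 2 left out, the log2 fold changes of Matn1, Matn2, Matn3, Matn4 and Comp were −13.35, −2.86, −11.60, −2.82 and −5.75, and all 5 were called lower. The part of the other cell types in the members' changes was not tested.

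**Figure D5:**
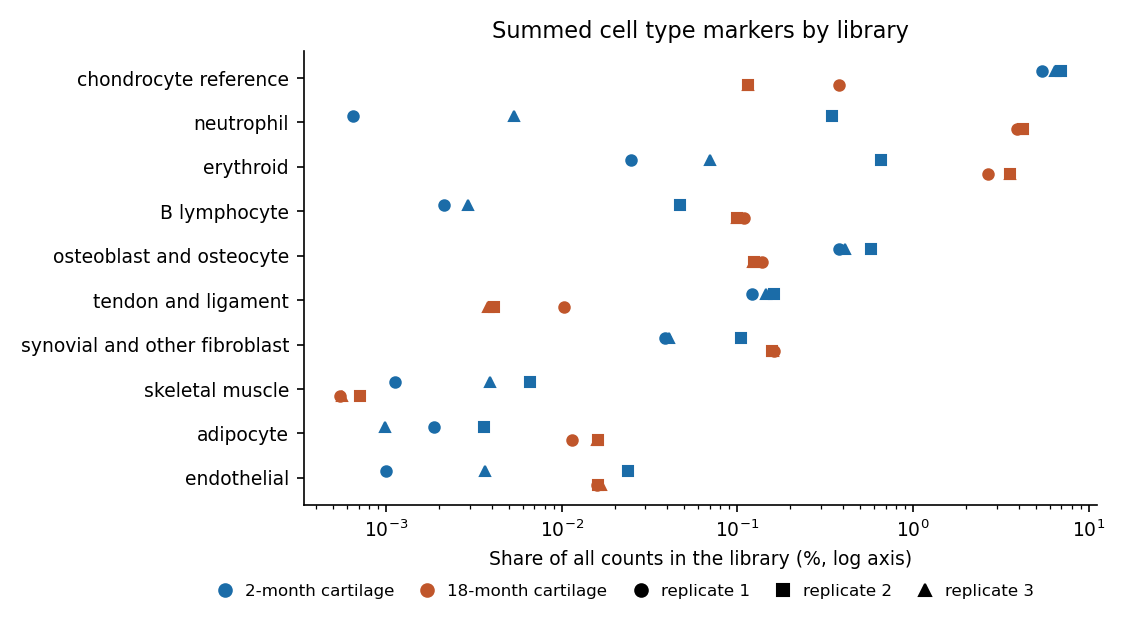
Share of all counts in a library taken by each list of cell type markers, in percent on a log axis, with 1 point per library (blue, 2-month; orange, 18-month; the marker shape gives the replicate). The chondrocyte and tendon lists lie lower at 18 months, neutrophil and erythroid markers higher, and 2-month replicate 2 stands nearest to the 18-month libraries for the marrow lists.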

How the data were processed

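Libraries were grouped by the age in their labels, with 3 per age. Per the labels, poly(A) RNA was made into strand-specific libraries with molecular identifiers and read from both ends. The submitters' processing notes name cutadapt 1.9, HISAT2 2.0.4, UMI-tools, StringTie 1.3.4d, DESeq2 and edgeR without their roles, and the build and annotation are not given in the sources used here. Of the deposited gene IDs, 99.7% were found in GENCODE M21 and 91.3% of those had the same start and end, so positions are GRCm38. Deposited were raw whole-number counts for each gene and FPKM values, scaled by transcript length and mapped fragments. Totals were 48171507 to 59085179 counts, which sets the counting error. All 6 libraries were used, and 0 columns were left out.

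The count test used edgeR 4.0.16 under R 4.3.3 (TMM, filterByExpr, quasi-likelihood test, no replicate block), adjusted by Benjamini-Hochberg over 20397 genes, and called at an adjusted p below 0.05 and a log2 fold change beyond 1 either way. The SE was derived from the log2 fold change and its F statistic. Ratios and shares were tested with exact two-sided permutations in scipy 1.17.1, with 0.5 counts added to the member in a ratio. Log2 CPM had a prior count of 2. Alternatives used other scalings and filters, DESeq2 1.42.0, limma 3.58.1 on log2 of FPKM or TPM, a replicate block, and each library left out. The scripts were tested on simulated data. Named were the members, the 2 called genes of each list with the largest fall or rise, and the 3 genes nearest each member. So was the most abundant marker of each cell type. Further genes of the lists, such as Mmp9, Mmp19, Nfic, Col1a2, Nid1, Col14a1 and Vwa1, were named outside this rule after their values were seen. The members and lists were chosen with earlier results of these data known. Promoter windows came from RefSeq, with 3 of 5 members matched. Counting intervals (95%, exact) and floors cover counting error only.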

Additional observations from a re-analysis of the deposited data

How the results depend on the processing

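The log2 fold changes of Matn1, Matn2, Matn3 and Comp stayed negative and called in 17 of 17 alternatives, ranging from −14.12 to −8.17, −3.28 to −1.83, −13.01 to −6.12 and −6.86 to −5.38. Matn4 stayed negative in 17 and was called in 12. It was −3.85 (adjusted p = 0.0898 in edgeR) with the replicate block and −2.93 (adjusted p = 0.0801) with 18-month replicates 2 and 3 summed as 1 sample, an alternative chosen after seeing the data. Leaving out each library gave −4.75 to −2.82. The labels do not say whether replicate numbers pair the libraries. Same-numbered libraries deviated together with correlations of 0.034, 0.044 and −0.024, and differently numbered ones with −0.055 to 0.053. With 3 libraries an age, these values cannot decide whether the libraries were paired. The block gave 6032 called genes against 7401 and ended no member's call but that of Matn4.

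Of all calls in the fit, 3047 were higher and 4354 lower. That split was 4365 and 4259 with limma on log2(FPKM + 0.1), 3041 and 2217 on log2(FPKM + 1), 3195 and 6228 on TPM, and 5007 and 4576 without 2-month replicate 2. Against Col2a1 alone, the ratios moved to −6.42 for Matn1, 4.21 for Matn2, −5.27 for Matn3, 3.37 for Matn4 and, reversed, 1.02 for Comp. Against the mean log2 count of the list they were 3.64 for Matn2, 2.79 for Matn4 and, reversed, 0.45 for Comp. FPKM gave 1.56 for Matn2 and −1.64 for Comp, and the list without Cytl1 gave 3.08 and −0.10. The mean log2 reference and the list without Cytl1 were chosen after seeing the data. The cause of these shifts was not tested. Counts of 0 to 13 at 18 months limit how far the level of Matn1 and Matn3 can be read.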
